A study of Mus musculus with 2 samples.

Results

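The 10 genes described here belong to the protein synthesis machinery and were followed in RNA pulled down with FLAG-tagged NAT10, a cytidine acetyltransferase of RNA, from mouse hearts. They were chosen by name as 7 translation initiation factors (Eif4g1, Eif4g2, Eif4g3, Eif5b, Eif4a1, Eif4e and Eif3a) and 3 elongation factors (Eef1a1, Eef1a2 and Eef2), and they stand among 21770 annotated protein-coding genes. A gene was counted when the table of RIP (RNA immunoprecipitation) summits placed a summit inside it. A summit is a single base at a high point of a peak, and a peak can hold several. Of the 10 genes, 5 had a summit and 5 had none, with 11 summits in all. Of all protein-coding genes, 919 had a summit (4.22%). The wider table held 2020 summits, of which 90 lay in no gene and the rest in 990 genes of all types.

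The hearts came from wild-type mice given AAV9-cTnT-FLAG-NAT10 under the skin on day 1 after birth and killed 20 days later. In this virus the cTnT promoter, active in heart muscle cells, drives the tagged enzyme. Both groups carried the construct: the Input library was 10% of the lysate of about 60 mg of tissue, and the RIP library was what anti-FLAG beads held from the rest. There was 1 library of each, and no pulldown from hearts without FLAG-NAT10 was analysed here, so there is no replicate check, no p-value was computed, and RNA held by beads or antibody cannot be told apart from RNA held by NAT10.

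The score of a summit is the authors' own value, a -log10 of the peak caller's p or q (the column's header was lost, so which of them is not given). The 2020 scores ran from 1.32 to 4922, with a median of 12.5 and quartiles of 5.83 and 28.3. The table gives neither counts nor the strand of the reads, so depth is unknown, and a score can rise with the abundance of an RNA as well as with its enrichment. For the same reason a gene without a summit is not a gene without RNA, and fewer cells of a type cannot be told apart from less RNA per cell. Markers of cardiomyocytes had a summit in 6 of 12 cases (median strongest score 265), among them Myh6 and Ttn, whereas Tnnt2, Actc1, Myl2, Myl3, Pln and Nppa had none. Endothelial markers had 3 of 6 (20.2), fibroblast markers 2 of 5 (14.5), leukocyte markers 1 of 4 (2.69) and erythroid markers 0 of 3. Among all protein-coding genes the share with a summit was 4.22%.

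Translation of most mRNAs starts when eIF4E binds the cap and eIF4G, a large scaffold, joins it to the helicase eIF4A and, through eIF3, to the small ribosomal subunit. At the start codon eIF5B, a GTPase, helps the large subunit to join. In elongation eEF1A brings aminoacyl-tRNA to the ribosome and eEF2 moves the ribosome by a codon. Heart muscle and neurons use the isoform eEF1A2 in adult life, while most other cells use eEF1A1, and the heart switches between them after birth.

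Cytidines acetylated by NAT10 have been reported in runs of CNN repeats, in which a C is followed by any 2 bases, so the longest such run was searched on the sense strand of each coding sequence, in all 3 frames (reference coding sequences of GENCODE mouse release 39). The runs below are shown because they span the range among the factors, and the capitals mark the repeated C. The first 2 genes held a run of 12 repeats, which 4.41% of 21663 coding sequences matched or exceeded, Eef1a2 and Eef2 held 8 (22.4%), and Eif5b held 5 (78.2%).
Eif4g1, chromosome 16, coding bases 779 to 814: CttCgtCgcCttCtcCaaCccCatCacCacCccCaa
Eif4g3, chromosome 4, coding bases 2138 to 2173: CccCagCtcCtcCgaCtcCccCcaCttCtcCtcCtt
Eef1a2, chromosome 2, coding bases 210 to 233: CatCacCatCgaCatCtcCctCtg
Eef2, chromosome 10, coding bases 216 to 239: CacCgcCatCtcCctCttCtaCga
Eif5b, chromosome 1, coding bases 1767 to 1781: CgaCtcCgaCgaCga

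The longest runs in coding sequence did not sort the factors by whether they had a summit. UTRs and introns were not searched, though 4 of the 11 summits lay in 3' UTRs, 2 in 5' UTRs and 1 in an intron. The search therefore cannot say whether such runs lie at the summits. Genes with one ranged from 5 repeats (Eif5b) to 12, with 6 in Eif4g2. Genes without one ranged from 5 (Eif4a1, Eif4e) to 8 (Eef2), with 6 in Eif3a and 7 in Eef1a1. The median over all coding genes was 6 and over coding genes with a summit 7. A match is a description of letters and not an acetylated site, and long sequences hold long runs more often.

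Most of the summits lay in initiation factors, which were also 7 of the 10 genes. Their coding sequences had 22689 bases in all, against 5349 in elongation factors. Summits lay in 4 of 7 initiation genes (57.1%, exact 95% interval 18.4 to 90.1) and in 1 of 3 elongation genes (33.3%, 0.840 to 90.6), against 4.22% of all protein-coding genes. The initiation genes held 10 summits and the elongation genes 1. The intervals cover counting error only, they overlap widely, and the difference between the classes was not tested. The genes were named with earlier results of these data known, so their excess over 4.22% is a description and not evidence about the class.

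**Figure D1:**
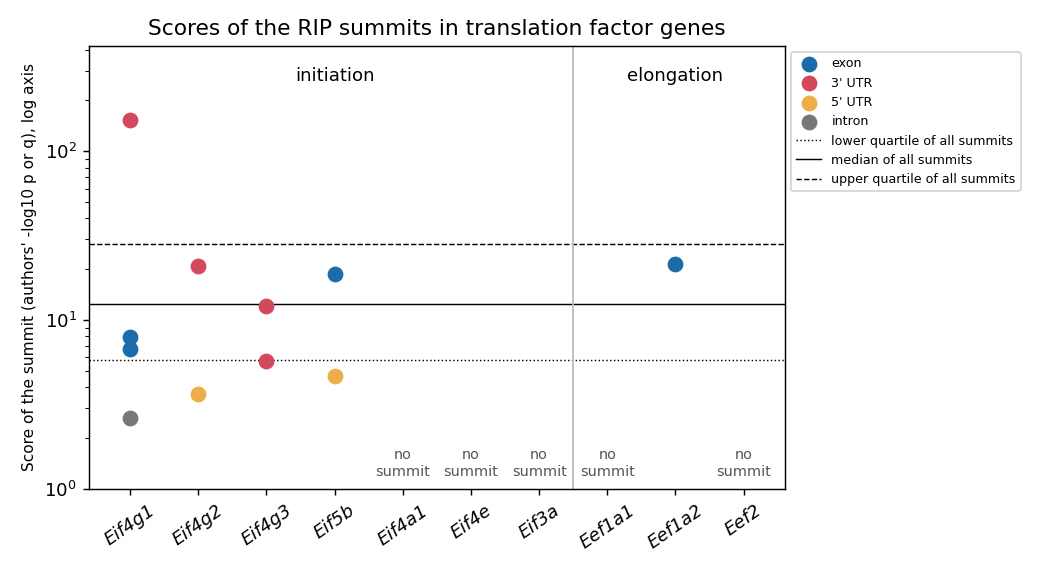
Score of each summit (authors' -log10 p or q, log axis) in the 10 translation factor genes, coloured by the part of the gene; horizontal lines are the quartiles and median of all 2020 summits. The Eif4g1 summit in the 3' UTR, at 152, stands above the upper quartile of 28.3, the other 10 lie at 21.5 or below, and 5 genes have none.

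Eif4g1, the main eIF4G scaffold (ENSMUSG00000045983, chromosome 16, 20672720 to 20692883, plus strand, GRCm38 as for all positions here), had 4 summits. The strongest, with a score of 152 at position 20692566, lay in the 3' UTR, 317 bases before the end of the gene. It ranked 45 of 2020 summits overall and 17 of 736 in 3' UTRs, and its gene ranked 32 of 919 protein-coding genes by strongest score. The other 3 were far weaker. Exon 23 held one of 7.94 (position 20686278), exon 9 one of 6.78 (20679839) and intron 29 one of 2.63 (20688889). The last ranked 1884 of 2020. The high rank of Eif4g1 thus came from a single 3' UTR position, and its second strongest summit ranked 1296. Having 4 or more summits was shared by 71 of 919 genes (7.73%).

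Eif4g2 encodes a relative of eIF4G that lacks the part that binds eIF4E and serves cap-independent initiation (ENSMUSG00000005610, chromosome 7, 111067985 to 111083030, minus strand). Its 2 summits lay in opposite UTRs, and only the one in the 5' UTR was close to an end of the gene. One scored 21.0 at 111070958 in the 3' UTR, 2973 bases from the end of the gene, and ranked 240 of 736 in 3' UTRs. The other scored 3.66 at 111082894 in the 5' UTR, 136 bases from the start of the gene, and ranked 33 of 34 in 5' UTRs.

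Eif4g3, the third eIF4G scaffold and close in sequence to Eif4g1 (ENSMUSG00000028760, chromosome 4, 137991779 to 138207086, plus strand), had 2 summits of a single peak, 405 bases apart, both in the 3' UTR. Their scores were 12.1 at 138206377 and 5.73 at 138206782, so the stronger ranked 1027 of 2020, just below the median of the list. They lay 709 and 304 bases from the end of a gene of 215308 bases, most of it intron. The coding sequences of Eif4g1 and Eif4g3 could be aligned over at most 821 bases at a stretch, at 74.9% identity, and neither had a copy of 95% identity over 150 bases, the length of a read.

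The 3 eIF4G genes therefore each had a 3' UTR summit, and 4 of their 8 summits lay there (50.0%, 15.7 to 84.3), against 36.4% of all summits. Of these 4, 2 belonged to a single peak of Eif4g3. Without the summits of Ttn, 41.1% of all summits lay in 3' UTRs, and the difference was not tested. The strongest scores of the 3 genes were 152 in Eif4g1, 21.0 in Eif4g2 and 12.1 in Eif4g3. With 1 library per group there is no spread from which to say whether any of these differ.

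Eif5b (ENSMUSG00000026083, chromosome 1, 37998010 to 38055579, plus strand) was the one initiation gene outside the eIF4G family with a summit, and it had 2, neither in the 3' UTR. The stronger scored 18.8 at 38019315 in exon 4 and ranked 388 of 1022 among coding exons. The weaker scored 4.65 at 37998251 in the 5' UTR, 241 bases from the start of the gene, and ranked 29 of 34 in 5' UTRs. Placed by these distances on the reference transcript, whose start was found from its sequence, the 2 summits fell in exon 4, of 670 bases, and in exon 1, of 368 bases, as the table states.

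**Figure D2:**
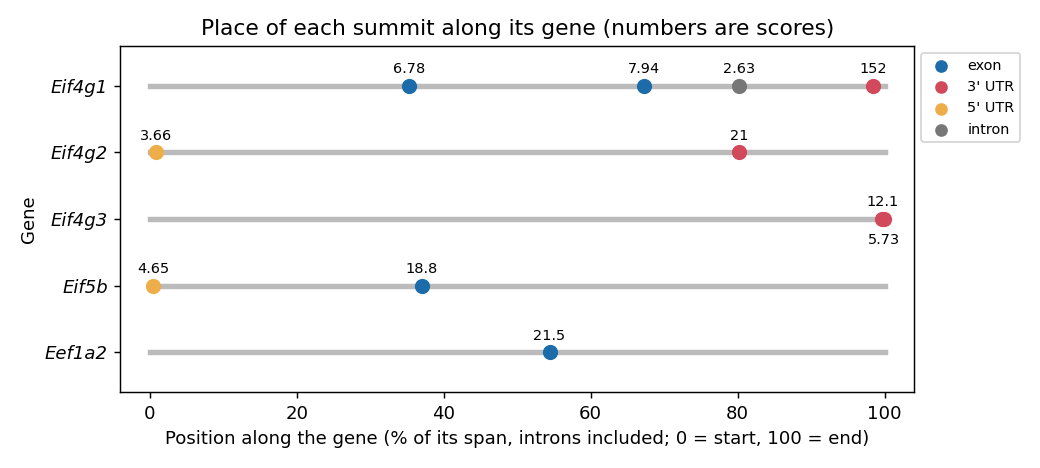
Place of the 11 summits along the 5 genes that had one, as a percentage of the gene's span with introns included (0 is the start, 100 the end); numbers are scores. The eIF4G genes each carry a 3' UTR summit toward the right end, Eif4g2 and Eif5b carry weak ones at the start, and the Eef1a2 summit lies in the middle.

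Eif4a1, the helicase of the cap complex, Eif4e, the cap-binding protein, and Eif3a, the largest subunit of eIF3, had no summit. Eif4a1 and Eif4e are short, with 1218 and 651 coding bases, and have near-identical copies, with 3 pseudogenes for Eif4a1 and 1 for Eif4e at 95% identity or more over 150 bases. Reads that fit several places can be lost, so their lack of a summit is uncertain, and the effect of the copies was not tested. Eif3a has 4032 coding bases and no such copy. It is longer than Eif5b (3648) and Eif4g2 (2718), which had 2 summits each.

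Among elongation factors, Eef1a2 had a single summit (ENSMUSG00000016349, chromosome 2, 181141758 to 181157015, minus strand). It scored 21.5 at 181148721 in exon 7 and ranked 665 of 2020 overall and 354 of 1022 in coding exons. That is the second strongest summit of all the factors, above the best of Eif4g2, Eif4g3 and Eif5b. No elongation factor had a summit in a UTR.

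Eef1a1, the isoform of most other cells, and Eef2 had none. Eef1a1 has 9 pseudogenes at 95% identity or more over 150 bases and 19 at 90%, the most of the 10 genes, while Eef2 has 1 at 95% and Eef1a2 has 0 at either level. Whether reads of Eef1a1 were lost to such copies was not tested.

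The 2 isoforms themselves can be told apart by reads of 150 bases. Their coding sequences were identical at 1110 of 1386 aligned bases (80.1%), and the longest stretch without a difference was 23 bases. Exon 7 of Eef1a2, where its summit lies, has 235 bases (1030 to 1264 of the coding sequence, of 8 exons, GENCODE release 39), and differs from Eef1a1 at 39 of them, with at most 12 identical bases in a row. It is printed with the matching stretch of Eef1a1, differences in capitals.
Eef1a2, chromosome 2, minus strand: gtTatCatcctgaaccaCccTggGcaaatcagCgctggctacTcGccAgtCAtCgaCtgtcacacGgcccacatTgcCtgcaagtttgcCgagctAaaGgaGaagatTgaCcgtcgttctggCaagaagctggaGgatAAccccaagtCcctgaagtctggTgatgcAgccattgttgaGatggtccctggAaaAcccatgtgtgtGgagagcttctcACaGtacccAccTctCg
Eef1a1, chromosome 9, minus strand: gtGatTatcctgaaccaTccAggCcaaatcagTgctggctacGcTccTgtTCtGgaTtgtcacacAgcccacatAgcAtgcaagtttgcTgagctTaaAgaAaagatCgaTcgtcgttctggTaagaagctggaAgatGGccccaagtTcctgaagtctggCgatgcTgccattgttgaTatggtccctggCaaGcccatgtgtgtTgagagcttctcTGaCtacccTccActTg

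By region, the 10 initiation summits comprised 4 in 3' UTRs (40.0%, 12.2 to 73.8), 3 in coding exons (30.0%, 6.67 to 65.2), 2 in 5' UTRs (20.0%, 2.52 to 55.6) and 1 in an intron. The single elongation summit lay in a coding exon. Over the whole list, 50.6% of summits lay in coding exons, 36.4% in 3' UTRs, 1.68% in 5' UTRs and 5.74% in introns. Without Ttn, which gave many exon summits, the first 3 shares were 44.5%, 41.1% and 1.90%. The initiation share in 5' UTRs rests on 2 weak summits in 2 genes, and its difference from the list was not tested. Of the 4 in 3' UTRs, 2 belonged to a single peak of Eif4g3. The intervals count each summit as independent, which summits of the same gene may not be.

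By score, the initiation summits had a median of 7.36, from 2.63 to 152, below the 12.5 of the list, and the elongation summit had 21.5. Taking the strongest summit of each gene, the initiation median was 19.9, against 14.2 over all 919 genes. Most factor summits were therefore weak: of the 11, 4 reached the median of the list, 1 reached its upper quartile and 4 lay below its lower quartile. With summits below the median of the list set aside, a summit was left in 3 of 7 initiation and 1 of 3 elongation genes, against 2.29% of protein-coding genes. At the upper quartile 1 and 0 were left, against 1.04%.

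Length moved with the presence of a summit. When all coding genes were divided into 4 classes of about equal size by coding length, 2.23% of the shortest (up to 786 bases) and 8.74% of the longest (1971 bases or more) had a summit. Of the 10 factors, 6 lay in the longest class, and 4 of these had a summit, Eif3a and Eef2 being the others. Of the 3 in the next class (1191 to 1968 bases, 3.80% of all genes), Eef1a2 had one and Eif4a1 and Eef1a1 had none. Eif4e lay in the shortest. The initiation genes had a median of 3648 coding bases and the elongation genes 1389. With summits in any part of the gene counted, there were 0.441 and 0.187 summits per kilobase of coding sequence. These values are not densities within coding sequence, since most initiation summits lay outside it. In coding exons alone lay 3 initiation summits, over 22689 coding bases, and 1 elongation summit, over 5349. Eef1a1 and Eef1a2 had almost the same length, 1386 and 1389 coding bases, and 0 and 1 summit. The part of length in the contrast between the classes was not tested.

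**Figure D3:**
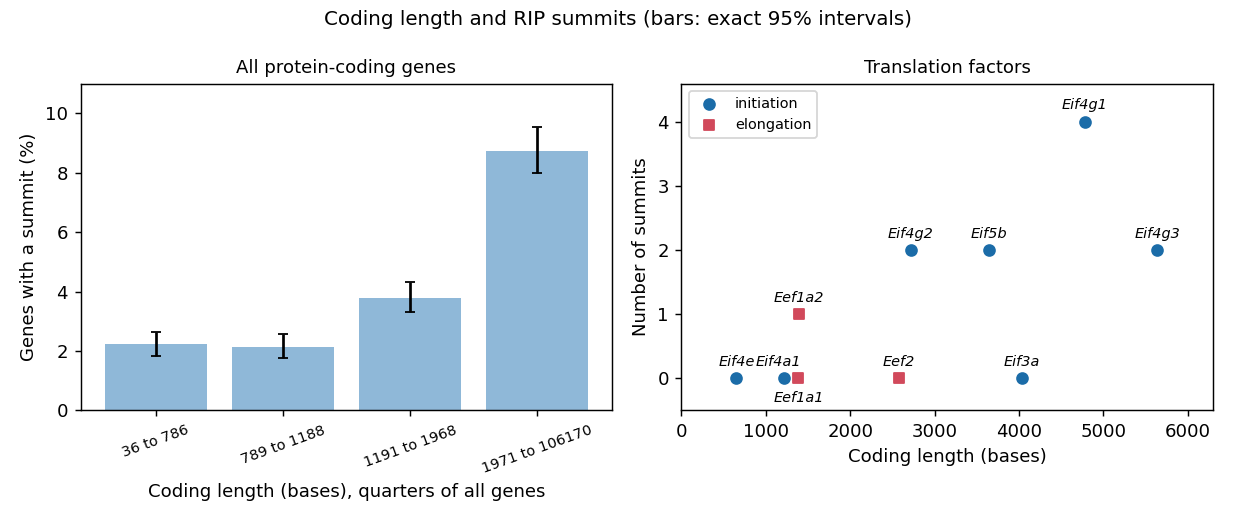
Left, percentage of all protein-coding genes with a summit in 4 classes of coding length, with exact 95% intervals; right, number of summits against coding length for the 7 initiation and 3 elongation genes. The share was 8.74% in the longest class against 2.23% in the shortest, and Eif3a and Eef2 were long genes without a summit.

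The base composition of the 2 classes overlapped, and no difference was tested. The median share of G and C in the coding sequence was 46.5% in initiation and 56.9% in elongation genes, against 51.9% over all genes and 54.7% over genes with a summit. Among initiation genes Eif4g3 stood at 56.0% and Eif4g1 at 53.3%, both above the 49.8% of Eef1a1. Neither this share nor the next measure covered UTRs or introns, where most of the factor summits lay. CCG, a triplet also reported around acetylated cytidines, was counted on the sense strand of coding sequences, with overlaps. It occurred 4.42 times per kilobase at the median of initiation genes and 13.0 times in elongation genes, against 8.01 over all genes and 10.7 over all genes with a summit. The factors with a summit had a median of 7.74 and those without one 4.33, with overlapping ranges. With a summit, the values were 17.2 in Eif4g3, 13.0 in Eef1a2, 7.74 in Eif4g1, 4.42 in Eif4g2 and 3.29 in Eif5b. Without one, they were 15.2 in Eef2, 9.03 in Eif4a1, 4.33 in Eef1a1, 3.97 in Eif3a and 3.07 in Eif4e.

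Wider lists of translation genes hold the 10 genes above, so their shares are not separate evidence. Of 46 initiation factors 10 had a summit (21.7%, 10.9 to 36.4), and of 9 elongation factors 1 (11.1%, 0.281 to 48.2), which was Eef1a2. Without the 10 genes, a comparison added after seeing the data, 6 of 39 initiation factors (15.4%, 5.86 to 30.5) and 0 of 6 elongation factors (0 to 45.9%) had a summit. The share over all protein-coding genes was 4.22%. The wider lists were also chosen with earlier results of these data known, so these shares are a description too. Besides the genes above, the initiation factors with a summit were Eif4e3, Eif3j2, Eif3b, Pabpc1, Eif4b and Eif3c. The cap-binding homolog Eif4e3 had a 3' UTR summit of 49.1 (chromosome 6, 99626707), but this base also lies in the overlapping gene Gm20696, so the signal cannot be assigned with certainty. Eif3j2, an eIF3 subunit gene on chromosome 18, scored 20.3 in its last exon at 43477528, and is a near copy of Eif3j1. The other 4, all below the 6 strongest genes and named after their values were seen, were weak. Eif3b scored 7.61, the poly(A)-binding protein Pabpc1 6.11 and 2.58, the helicase cofactor Eif4b 6.09, and Eif3c 3.33.

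The other lists ranged from no gene with a summit to 13.6%. Of 4 termination and recycling genes 0 had a summit. Of 17 regulators 1 did (5.88%): Larp1, which binds mRNAs that begin with a pyrimidine tract, with 59.6 at 58059604 and 13.5 at 58061781 on chromosome 11, both in the 3' UTR. Of 10 mitochondrial translation factors 1 did (10.0%), Mtif3 at 10.7, at a base shared with Gtf3a. Of 22 genes of cytosolic aminoacyl-tRNA synthetases and their scaffold 3 did (13.6%), namely Eprs1 at 56.1 and 25.1, Lars1 at 24.2 and Aars1 at 14.9. The differences between the lists, and from the 4.22% of all protein-coding genes, were not tested. The initiation list includes the initiation genes described above, and all the lists were chosen with earlier results of these data known.

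**Figure D4:**
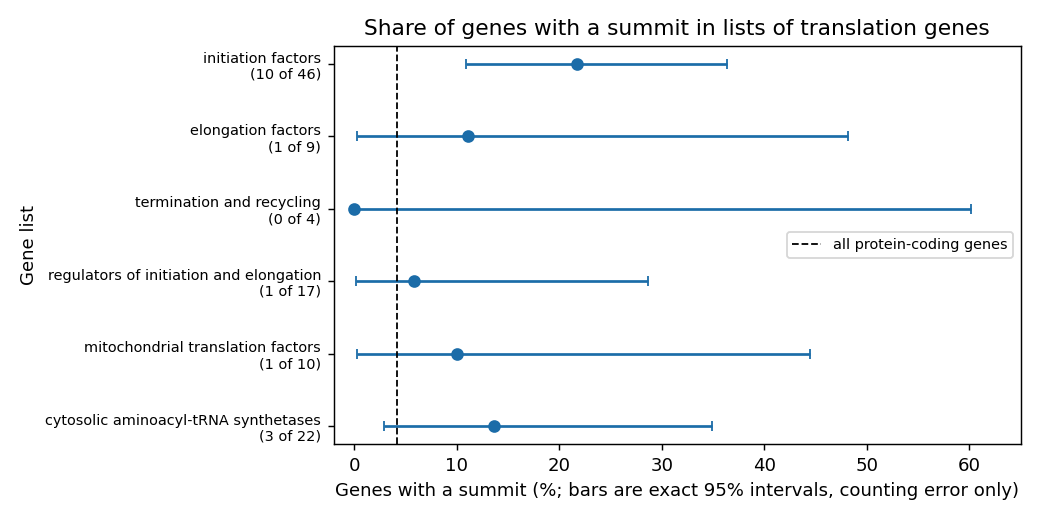
Percentage of genes with a summit in 6 lists of translation genes, with exact 95% intervals that cover counting error only; the dashed line is the 4.22% of all protein-coding genes. Initiation factors stood at 21.7%, synthetases at 13.6% and termination factors at 0.

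Some initiation summits lay close to the start of their own gene. Within 500 bases of the start, a distance chosen after the values were seen, lay 5 of the 17 summits of the wider initiation list (29.4%, 10.3 to 56.0), in Eif4g2, Eif5b, Eif3b and Pabpc1 (2 of the 5 in the first 2 genes, which are among the 10), against 69 of 2020 in the whole list (3.42%, 2.67 to 4.30); the difference was not tested. All 5 were weak, from 2.58 to 7.61, and 2 of them lay in exon 1 of Pabpc1. The interval counts each summit as independent, which summits of the same gene may not be, so it may be too narrow. The strongest summits of the initiation genes, in Eif4g1 and Eif4e3, lay in 3' UTRs.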

How the data were processed

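RNA of mouse heart was sequenced from 1 Input and 1 RIP library as paired reads of 150 bases. Per the submitters' processing notes, the tools were BWA 0.7.12, fastp, HOMER and MACS2 2.1.0; their roles and settings are not given in the sources used here. The deposited score of each summit is a -log10 p-value or q-value of the authors, and the deposited count of overlapped genes was used as given.

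The notes name GRCm39, but 11 of 11 summits of the factors lay inside their gene in RefSeq GRCm38 and 0 of 11 in GENCODE GRCm39, so positions are GRCm38, 1-based. GENCODE release 39 gave gene types, canonical coding sequences and exons; no position was converted and no sequence was read by position. Copies were searched with BLAST+ 2.17.0, and intervals are exact binomial (scipy 1.17.1). Functions were tested on simulated data.

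Members and lists were chosen with earlier results of these data known. All 10 members are named, and in each wider list every gene with a summit, or the 6 strongest where there were more; the 4 weaker initiation genes fall outside this rule. Alternatives changed the score threshold, gene assignment, merging, regions and lists.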

Additional observations from a re-analysis of the deposited data

How the results depend on the processing

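Of 123 alternative values for 21 results, 93 stayed close to the reported ones (within 1.5 times, or for shares within the interval). This count does not measure robustness, because many alternatives could change little or nothing. The elongation results rest on 1 summit. All 11 member summits lay in exactly 1 gene, and the nearest 2 of them were 405 bases apart, beyond the merging distance of 200. Intervals of shares were wide, so an initiation exon share of 52.9% counted as close to 30.0%. At or above the median score, initiation members kept 3 summits, with 0% of them in 5' UTRs and a median of 21.0, and the wider initiation list 5 genes and the mitochondrial list 0. At or above the upper quartile, 1 initiation and 0 elongation members were left, with 1 and 0 summits, of which 0% lay in exons and 100% in 3' UTRs, and the wider lists had 2 initiation, 0 elongation, 0 mitochondrial and 1 synthetase genes. Assigned to the closest transcription start, 2 initiation members had 3 summits, since the starts of other genes lay nearer to the rest, and the wider lists had 4 initiation genes and 1 synthetase gene. Without Eif4g1 there were 6 initiation summits. With the wider lists in place of the members, 10 initiation genes had 17 summits. The strongest summit per gene gave an initiation median of 19.9. Without the 10 members, added after seeing the data, the wider lists had 6 initiation and 0 elongation genes. Mitochondrial factors had 0 genes when summits in exactly 1 gene were used and 2 under RefSeq bounds. Within 250 bases of the start, chosen after seeing the data, lay 17.6% of the wider initiation summits against 2.33% of all, and within 1000 bases 29.4% against 4.80%. No paired analysis was possible because there was 1 library per group. Depth is unknown, so no limit from it can be given.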
